A study of Mus musculus with 24 samples.

Results

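Endothelial cells of the mouse brain were profiled by RNA sequencing on postnatal days 5 and 9 (P5 and P9), and the wild-type libraries of these days are described here: 3 at P5 and 3 at P9, which make 6 of the 24 libraries of the study. They were chosen by their labels alone, and the change is given as P9 minus P5. The whole study crossed 4 stages (E15.5, P5, P9 and adult) with presence or endothelial loss of Sox17, 3 libraries a group, and concerns Sox17, canonical Wnt signalling and the blood-brain barrier. The pups called wild type carried 2 floxed Sox17 alleles (Sox17flox/flox) and no Cdh5(PAC)-Cre-ERT2 transgene, and they had received 100 µg of tamoxifen under the skin at P1, as had the knockout pups (Sox17iECKO), which carry that Cre under the endothelial Cdh5 promoter. The adults set beside them had been given tamoxifen at 6 weeks of age, 1 week before harvest, and the E15.5 embryos were exposed through injections at E11.5 and E13.5. Cells were depleted of CD45-positive cells and selected on CD31 beads after removal of myelin debris and red cells. One step differed between the days compared: E15.5 and P5 brains were dissociated with the Neural Tissue Dissociation kit (P), and P9 and adult brains with the Adult Brain Dissociation kit. Age and kit therefore cannot be told apart in any value below. Polyadenylated RNA was sequenced with strand information on an Ion Proton instrument.

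Between these days the mouse brain vasculature is still growing: tip cells lead sprouts under VEGF, and Notch signalling through Dll4 restrains the cells behind them. Wnt ligands from neural cells act through Fzd4, beta-catenin and Lef1 in the endothelium to turn on barrier genes such as Cldn5 and Slc2a1 and to turn off Plvap, the diaphragm protein of leaky vessels. Oligodendrocytes begin to myelinate in the same period, so their transcripts become abundant in the tissue around the vessels.

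The 6 libraries held 14457124 to 18423936 counts each, 20564 to 21179 genes had at least 1 count, and 3 counts corresponded to 0.163 to 0.208 CPM (counts scaled to the library total). The cells carried the signature of their label: the 32 genes of the endothelial identity list had a median level of 306 to 378 TPM (which takes account of gene length) in the 6 libraries. The same median was 100.4 to 172 TPM over 14 pericyte markers, 7.71 to 85.1 over 12 oligodendrocyte markers and 1.39 to 11.8 over 16 markers of microglia and macrophages. Sex was not balanced between the days. Counts of the Y-linked genes Ddx3y, Eif2s3y, Kdm5d and Uty added up to 2802 and 3462 in P5 libraries 1 and 2, which held 8 and 0 counts of Xist, and to 0 or 1 in the other 4, which held 11024 to 19134 counts of Xist. P5 libraries 1 and 2 thus read as male, and P5 library 3 and the 3 P9 libraries as female. The wild-type count of each gene list below is therefore also given with sex as a covariate in the fit of all 24 libraries and with P5 library 3 alone set against the P9 libraries, where the lone library is assumed to vary as the other groups do. That second setting is called female libraries alone below. It left out P5 libraries 1 and 2 only, so knockout libraries that read as male stayed in the fit.

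Of 17159 genes tested, 879 changed between P5 and P9 at an adjusted p under 0.05 (5.12% of those tested). At P9, 458 were higher (2.67%) and 421 lower (2.45%), and 3424 genes had an unadjusted p under 0.05. The counts of each gene list below are to be read beside these shares. The falls were the deeper changes: 234 lower genes and 146 higher genes differed by a log2 fold change of 1 or more. All 3 libraries of one day lay outside the range of the other day for 875 of the 879, against 31.1% of all genes tested. Few calls stood on every library: 215 of the 879 held whichever of the 6 was left out. The counts of higher and lower genes were 296 and 250 without P5 library 1, 271 and 359 without P5 library 2, 183 and 181 without P5 library 3, 237 and 202 without P9 library 1, 154 and 151 without P9 library 2, and 252 and 196 without P9 library 3. With sex as a covariate 347 were higher and 287 lower, 549 of the 879 were called, and all 879 kept their sign. Over female libraries alone 87 were higher and 110 lower, 182 of the 879 were called, and 878 kept their sign. The calls included 28 genes of chromosome X and 0 of chromosome Y. Shares of the tested genes of these chromosomes were not computed. The P5 libraries held both sexes, so these counts do not measure an effect of sex. Scaling the libraries to the summed counts of the endothelial identity genes moved the median of all genes by -0.11 (log2) and the share of higher genes among the calls from 52.1% to 26.9% (146 higher and 396 lower), so small rises below depend on the scaling.

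**Figure D1:**
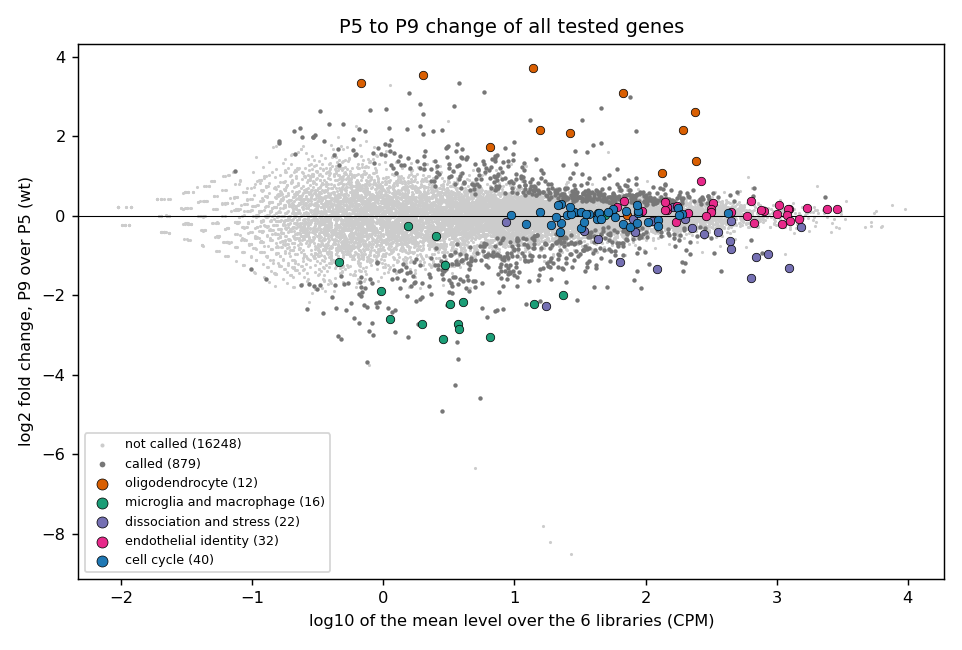
Each point is 1 tested gene, placed by the log10 of its mean level over the 6 libraries (CPM) and by its log2 fold change of P9 over P5 in wt, with called genes in dark grey and the members of 5 gene lists in colour; 32 genes at 0 counts in all 6 libraries are not drawn. Oligodendrocyte markers lie above 0, and microglia and stress genes mostly below it. The cell cycle list lies close to 0, and the endothelial identity list mostly a little above it.

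The largest rises were in genes of myelinating glia. Mog, a myelin surface protein (chromosome 17, 37010743 to 37023398 in mm10), was at 3.05, 0.484 and 2.17 CPM at P5 and 16.4, 36.1 and 24.8 CPM at P9. Every P9 library was above every P5 library by several fold (log2 fold change 3.71, SE 0.35, adjusted p = 2.2e-06). Ermn, a cytoskeletal protein of myelin, was at 0.0692, 0.181 and 0.383 CPM at P5 and 3.07, 4.81 and 3.57 CPM at P9. Ermn rose with a log2 fold change of 3.54 (SE 0.4, adjusted p = 1.1e-05). Hapln2, a link protein of the nodes of Ranvier, was at 0.969, 0.847 and 1.53 CPM at P5 and 10.1, 14 and 7.71 CPM at P9. Hapln2 rose with a log2 fold change of 3.12 (SE 0.3, adjusted p = 1.5e-06). Nkx6-2, a transcription factor of maturing oligodendrocytes, belongs to the same set of the 15 largest rises (log2 fold change 2.17, adjusted p = 0.0013). S1pr5, a sphingosine 1-phosphate receptor, was at 0.485, 0.605 and 0.383 CPM at P5 and 2.88, 5.21 and 2.43 CPM at P9. S1pr5 rose with a log2 fold change of 2.57 (SE 0.36, adjusted p = 0.00013). Tmem125 and Sec14l5 rose by 2.27 and 2.77 on the log2 scale.

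The third largest rise was in the locus of a microRNA known for its part in oligodendrocyte differentiation, Mir219a-2. Its hairpin lies at chr2:29845631-29845727 on the minus strand (GRCm38.p6), and its mature product in RefSeq, shown because this was the microRNA among the 15 largest rises, is given 5′ to 3′ with its seed (bases 2 to 8) in capitals:
mmu-miR-219a-5p: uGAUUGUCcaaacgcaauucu
The reads here came from polyadenylated RNA over the hairpin, which is a precursor, so they do not measure this mature molecule. The locus was at 0.831, 0.423 and 0.511 CPM at P5 and 7.06, 7.81 and 6.21 CPM at P9. The P9 libraries were all above the P5 libraries (log2 fold change 3.34, SE 0.44, adjusted p = 6.9e-05), and the level was 0.0796 ± 0.069 CPM at E15.5 and 40 ± 20.1 CPM in adults (SD, n = 3).

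The complete oligodendrocyte list changed in nearly all its members. It had 11 of 12 higher and 0 lower, median log2 fold change 2.17, where Mal alone was not called (log2 fold change 0.03). The counts were 11 higher and 0 lower with sex as a covariate, and 10 and 0 over female libraries alone, and 11 were called without any 1 library. Mbp, myelin basic protein, was at 178, 82.3 and 143 CPM at P5 and 266, 452 and 335 CPM at P9. Mbp rose with a log2 fold change of 1.39 (SE 0.21, adjusted p = 0.00042). Mag, which joins axon and myelin, was at 94.7, 51.6 and 62.8 CPM at P5 and 234, 464 and 244 CPM at P9. Mag rose with a log2 fold change of 2.17 (SE 0.3, adjusted p = 0.0001). P9 library 2 was the highest library for both Mbp and Mag, and P5 library 2 the lowest. Mobp, a myelin structural protein, followed the same order (log2 fold change 3.1, adjusted p = 6.9e-07). Opalin had 1 count in all P5 libraries together and 64 at P9, a ratio of 63.6 (95% exact interval 11 to 2.55e+03, counting error only). Summed over the 12 markers the level was 369 to 567 CPM at P5 and 1144 to 2058 CPM at P9, beside 61.6 to 77.8 CPM at E15.5 and 24456 to 29736 CPM in adults. In such sorted bulk fractions fewer or more cells of a type and less or more RNA per cell cannot be told apart, and the part of such cells in the other changes was not tested.

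Some precursor markers were lower at P9. Of 10 genes of oligodendrocyte precursors, 3 fell and 0 rose (median log2 fold change -0.52). Pdgfra, the growth factor receptor that marks these cells and also fibroblasts, was at 177, 119.9 and 134 CPM at P5 and 50, 31 and 40.7 CPM at P9. Pdgfra fell with a log2 fold change of -1.82 (SE 0.25, adjusted p = 0.00011). All P9 libraries were below all P5 libraries. Gpr17, a receptor of committed precursors (log2 fold change -1.21, adjusted p = 0.0095), and Cspg5, a proteoglycan (log2 fold change -0.81, adjusted p = 0.012), were also lower. The counts were 0 higher and 3 lower with sex as a covariate, and 0 and 1 over female libraries alone. With 1 library left out (adjusted p in parentheses), the call was lost by Gpr17 without P9 library 3 (0.051) and Cspg5 without P5 library 1 or P9 library 3 (0.051 to 0.064).

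Genes of microglia and macrophages made up many of the largest falls: 0 of 16 higher and 11 lower, median log2 fold change -2.2, and 0 higher and 10 lower with sex as a covariate, and 0 and 7 over female libraries alone. Mrc1, the mannose receptor of perivascular and meningeal macrophages, was at 17, 10.9 and 7.54 CPM at P5 and 1.64, 1.13 and 1.14 CPM at P9. Mrc1 fell with a log2 fold change of -3.06 (SE 0.29, adjusted p = 1.5e-06). C1qa, C1qb and C1qc, the chains of complement C1q, fell by 3.10, 2.73 and 2.84 on the log2 scale (adjusted p = 2.7e-05, 0.00087 and 0.00075). Cd68, a lysosomal protein of macrophages, was the most abundant of those named, at 40.3, 34.1 and 38.4 CPM at P5 and 11.1, 8.27 and 8.64 CPM at P9. Cd68 fell with a log2 fold change of -2.0 (SE 0.21, adjusted p = 4.6e-06). Fcrls, a microglial Fc receptor-like protein (log2 fold change -2.72, adjusted p = 0.0003), and Pf4, a chemokine of platelets and of border macrophages (log2 fold change -2.22, adjusted p = 0.00045), moved with them. F13a1, a coagulation transglutaminase made by macrophages and platelets (chromosome 13, 36867178 to 37050244), was at 9.69, 6.65 and 4.09 CPM at P5 and 0.327, 0.113 and 0.286 CPM at P9. F13a1 fell with a log2 fold change of -4.26 (SE 0.39, adjusted p = 6.9e-07). None of these genes overlapped between the days, which was required of the 15 largest falls and held for 875 of the 879 called genes. Their levels were low throughout: the 16 markers summed to 149 to 205 CPM at P5 and 69.4 to 80.5 CPM at P9, and to 95 to 122 CPM at E15.5 and 207 to 480.4 CPM in adults. Tmem119, known from microglia, was not called (log2 fold change -0.25). Of 8 tested markers of other leukocytes, 1 was called, the neutrophil gene S100a9 (log2 fold change 1.31, adjusted p = 0.034). Counts of higher and lower genes were 0 and 0 for other leukocyte markers with sex as a covariate. Female libraries alone gave 0 and 0 for other leukocyte markers. With 1 library left out, S100a9 lost its call without P5 library 1 or 2 or P9 library 1, 2 or 3 (adjusted p 0.06 to 0.14). Settings that ended a call were identity scaling for S100a9 (0.072), and the sex covariate for S100a9 (0.12).

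The deepest falls were in genes with low counts and little known of them in endothelium. Gckr, the regulatory protein of glucokinase (chromosome 5, 31297443 to 31327314), had 259 counts over the P5 libraries and 3 over the P9 libraries, a ratio of 86.9 (95% exact interval 29.4 to 424, counting error only), at 4.15, 5.5 and 6.9 CPM at P5 and 0, 0.17 and 0 CPM at P9. Gckr fell with a log2 fold change of -4.91 (SE 0.59, adjusted p = 2.1e-05), a value that the fit draws toward 0 where counts are few. Fam71a (chromosome 1, 191162584 to 191164817) was at 9.28, 8.59 and 14.1 CPM at P5 and 0.523, 0.17 and 0.286 CPM at P9. Fam71a fell with a log2 fold change of -4.59 (SE 0.49, adjusted p = 1.1e-05). For both, every P5 library was far above every P9 library. Calb1, the calcium buffer calbindin, was at 5.33, 6.71 and 8.75 CPM at P5 and 0.654, 0.226 and 0.5 CPM at P9. Calb1 fell with a log2 fold change of -3.61 (SE 0.39, adjusted p = 7.1e-06). Arhgef33, a guanine nucleotide exchange factor (log2 fold change -3.18, adjusted p = 1.8e-05), Rgs8, a regulator of G protein signalling (log2 fold change -2.55, adjusted p = 1.9e-05), and Cpne9, a copine (log2 fold change -2.4, adjusted p = 0.006), fell as well. Slc22a3, an organic cation transporter, was at 3.95, 2.72 and 3.19 CPM at P5 and 0.458, 0.679 and 0 CPM at P9, without a count in P9 library 3 (log2 fold change -2.71, SE 0.56, adjusted p = 0.0061). For 6 of these 7 genes the mean at P5 was also above the means at E15.5 and in adults, given with no test. Gckr was at 0.582 ± 0.286 CPM at E15.5 and 0.441 ± 0.269 CPM in adults, and Fam71a was at 3.39 ± 2.91 CPM at E15.5 and had 0 CPM in adults. The exception was Rgs8, at 48.9 ± 12.2 CPM at E15.5, 10.7 ± 2.1 CPM at P5 and 11.9 ± 1.19 CPM in adults. Each of these genes was called without any 1 library. Over female libraries alone Slc22a3 was the one of them not called, with a log2 fold change of -2.68.

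Neuronal genes moved in both directions. Of 14 neuron markers, 2 rose and 3 fell (median log2 fold change 0.08). Slc17a6, a vesicular glutamate transporter, was at 2.84, 3.51 and 4.92 CPM at P5 and 7.91, 8.89 and 7.93 CPM at P9. Slc17a6 rose with a log2 fold change of 1.11 (SE 0.25, adjusted p = 0.012). Gad1, which makes GABA, was at 50.6, 43.6 and 83.7 CPM at P5 and 25.1, 25.7 and 23.6 CPM at P9 (log2 fold change -1.25, SE 0.34, adjusted p = 0.031), and P5 library 3 was the highest. Map2, a dendritic microtubule protein, fell as well (log2 fold change -0.94, adjusted p = 0.026). Icam5, an adhesion protein of forebrain neurons (log2 fold change -2.37, adjusted p = 0.0011), Npas1, an interneuron transcription factor (log2 fold change -2.31, adjusted p = 0.0032), and Kif1a, an axonal motor (log2 fold change -1.19, adjusted p = 0.0097), were also lower. Neurod1, from the 12 markers of neural progenitors, was the 1 called there and was higher, at 17.9, 10.5 and 22.3 CPM at P5 and 34, 35.1 and 55.7 CPM at P9. Neurod1 rose with a log2 fold change of 1.29 (SE 0.23, adjusted p = 0.0015). Among 12 astrocyte markers 3 rose and 0 fell: S100b (log2 fold change 1.14, adjusted p = 0.0035), the glutamate transporter gene Slc1a2 (log2 fold change 0.66, adjusted p = 0.028) and Gja1, which is described with the junctions. Ependymal cilia genes Ccdc153 and Tmem212 were higher, at 0.346, 0.242 and 0.575 CPM against 4.45, 2.66 and 3.21 CPM (log2 fold change 2.8, adjusted p = 0.00014) for the first, and log2 fold change 2.68, adjusted p = 0.0027 for the second. The higher and lower counts became 1 and 1 for neuron markers, 1 and 0 for neural progenitor markers and 2 and 0 for astrocyte markers with sex as a covariate. Over female libraries alone they were 0 and 1 for neuron markers, 0 and 0 for neural progenitor markers and 0 and 0 for astrocyte markers. Without the libraries named here (adjusted p in parentheses), no call was made for Slc17a6 without P5 library 1 or P9 library 2 (0.059 to 0.065), Gad1 without P5 library 3 or P9 library 1, 2 or 3 (0.097 to 0.19) and Map2 without P5 library 1 or 3 or P9 library 1, 2 or 3 (0.062 to 0.12). Likewise lost were those of Kif1a without P9 library 1 (0.053) and Slc1a2 without P5 library 2 or P9 library 2 or 3 (0.071 to 0.19). An adjusted p of 0.05 or more was also found with limma-trend for Gad1 (0.063), and with identity scaling for Slc1a2 (0.19), and with the sex covariate for Slc1a2 (0.06) and Gad1 (0.07).

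Calls among pericyte, smooth muscle and red cell markers fell in smooth muscle alone, alternative settings aside. Of 14 pericyte markers 0 were called by edgeR, DESeq2 or limma-trend and 1 had an unadjusted p under 0.05, although 13 had a log2 fold change under 0 (median -0.43), and 9 did not overlap between the days (lower at P9, against 15.1% of all genes tested). In the fit of the 6 libraries alone 8 of the 14 were lower, and 8 with no low-count filter. Given as higher and lower, the counts were 0 and 0 for pericyte markers and 0 and 0 for red cell genes with sex as a covariate. In female libraries alone these were 0 and 0 for pericyte markers and 0 and 0 for red cell genes. Their summed level was 4717 to 6075 CPM at P5 and 3310.3 to 4445 CPM at P9. Smooth muscle markers had 3 lower and 0 higher of 10, beside 2.45% of all genes tested called lower. Of these markers 8 did not overlap between the days and were lower at P9, against 15.1% of all genes tested. The fit of the 6 libraries alone called 6 lower. Acta2, smooth muscle actin, was at 26.4, 35.3 and 26.3 CPM at P5 and 13.5, 12.9 and 14.6 CPM at P9. Acta2 fell with a log2 fold change of -1.09 (SE 0.24, adjusted p = 0.0095). Tagln, transgelin (log2 fold change -1.02, adjusted p = 0.0099), and Myh11, smooth muscle myosin (log2 fold change -0.93, adjusted p = 0.013), fell too. The counts for smooth muscle were 0 higher and 2 lower with sex as a covariate, and 0 and 0 over female libraries alone. Red cell genes had 0 calls of 11 by edgeR, DESeq2 and limma-trend and 0 at an unadjusted p under 0.05, with all 11 above 0 (median 0.41). With no low-count filter edgeR called 4 of the 11 higher, and without P5 library 2 it called 1. With 1 library left out (adjusted p in parentheses), the call was lost by Acta2 without P9 library 2 (0.058), Tagln without P5 library 3 or P9 library 2 (0.05 to 0.072) and Myh11 without P5 library 2 or P9 library 1 or 2 (0.052 to 0.095). Over all libraries, a call was also lost with the sex covariate for Myh11 (0.067).

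**Figure D2:**
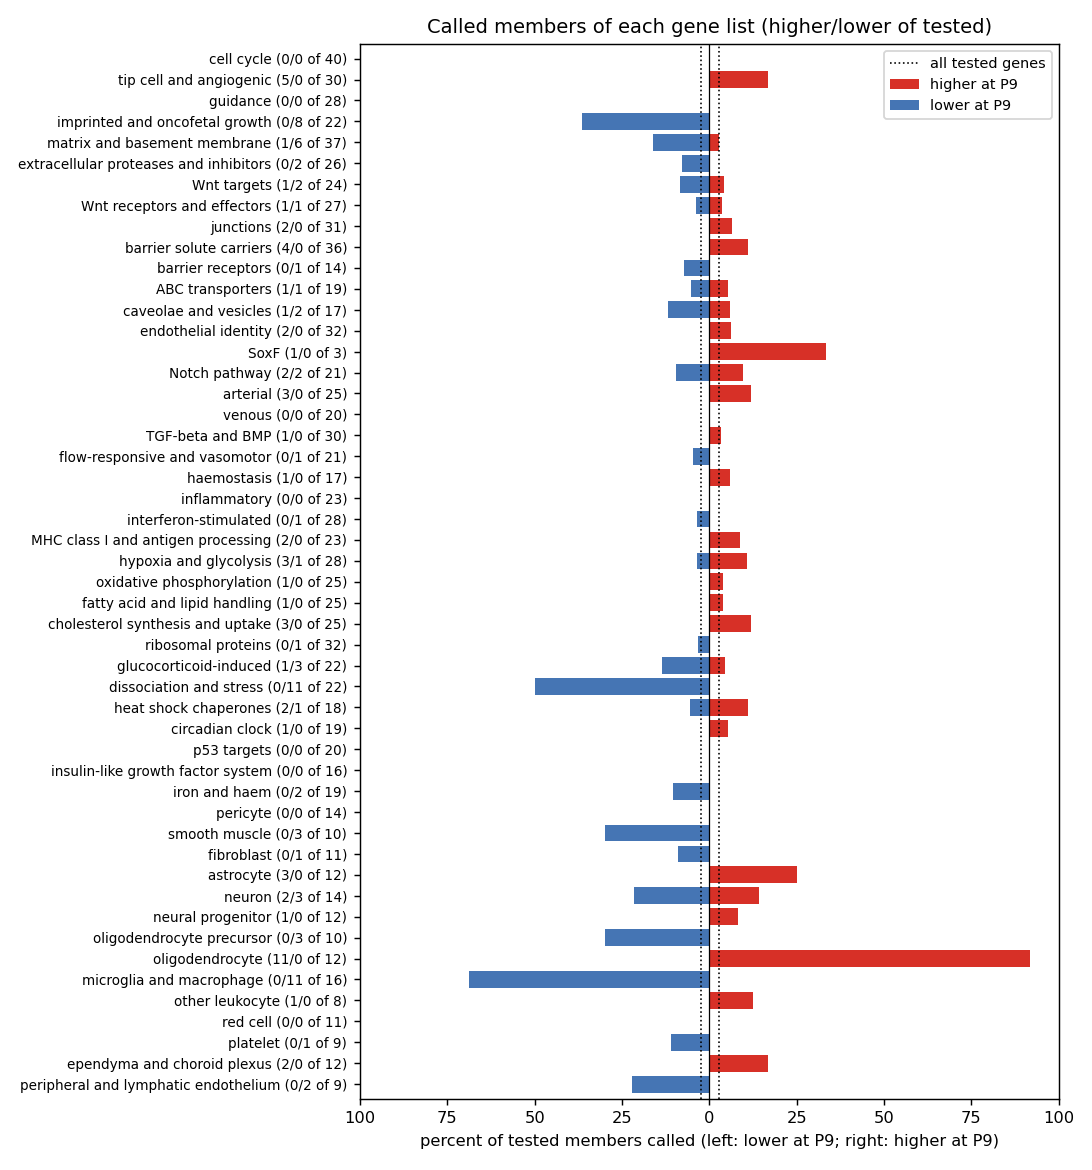
Bars give the percent of tested members called in each of the 50 gene lists, to the right for members higher at P9 and to the left for members lower at P9, with dotted lines at the share over all tested genes (2.67% and 2.45%) and the counts beside each name. The oligodendrocyte list stands out to the right (11 of 12), and the microglia (11 of 16), stress (11 of 22) and imprinted (8 of 22) lists to the left.

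Few endothelial identity genes were called, though most had a log2 fold change above 0 (25 of 32). Without overlap 9 were higher and 2 lower, against 16.1% and 15.1% of all genes tested. The 32 identity genes had 2 of 32 higher and 0 lower, median log2 fold change 0.15, and the highest value was that of Sox18. Cdh5, VE-cadherin, was at 1161, 1222 and 1141 CPM at P5 and 1035, 1023 and 1011 CPM at P9, and Pecam1, the CD31 antigen used for the selection, at 1102, 1295 and 1059.9 CPM at P5 and 1294, 1315 and 1275 CPM at P9. Neither was called (adjusted p = 0.26 and 0.4). Sox18, a SoxF transcription factor of vessels and lymphatics (chromosome 2, 181669836 to 181671640), was at 210.4, 199 and 149 CPM at P5 and 334, 375 and 317 CPM at P9. All P9 libraries were above all P5 libraries (log2 fold change 0.88, SE 0.22, adjusted p = 0.024), and P5 library 3 was the lowest. Tal1, a transcription factor of blood and endothelium, was at 66.1, 58.8 and 53.6 CPM at P5 and 78.4, 75.6 and 77.8 CPM at P9. Tal1 rose with a log2 fold change of 0.38 (SE 0.1, adjusted p = 0.024). The other SoxF genes were not called: Sox17, the gene that the study deletes, was at 306, 227 and 298 CPM at P5 and 354, 335 and 311 CPM at P9 (log2 fold change 0.27, SE 0.24, adjusted p = 0.59), and Sox7 at 129, 123 and 118 CPM at P5 and 159.9, 157 and 152 CPM at P9. Sox7 was not called, with a log2 fold change of 0.34 (SE 0.11, adjusted p = 0.08). Sox7 passed the threshold in the fit of the 6 libraries alone (0.011) and with the replicate block (0.037). In the Sox17iECKO libraries Sox17 was at 16.7 ± 2.11 CPM at P5 and 23.4 ± 4.18 CPM at P9. For the identity list the counts were 1 higher and 0 lower with sex as a covariate, and 0 and 0 over female libraries alone. With 1 library left out, Sox18 lost its call without P5 library 2 or 3 or P9 library 1 or 2 (adjusted p 0.05 to 0.13). Tal1 lost its call without P5 library 2 or 3 or P9 library 1, 2 or 3 (0.065 to 0.13). Settings that ended a call were no low-count filter for Tal1 (0.097), and identity scaling for Tal1 (0.22), and the sex covariate for Tal1 (0.065).

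No change was called in 4 of the best known barrier genes. Cldn5, the main tight junction claudin of brain endothelium, was at 5034, 5443 and 5559.6 CPM at P5 and 5459, 5834 and 5592 CPM at P9. Cldn5 was not called, with a log2 fold change of 0.07 (SE 0.13, adjusted p = 0.81). Slc2a1, the glucose transporter GLUT1, was at 1396, 1555 and 1312 CPM at P5 and 1369.8, 1364 and 1484 CPM at P9. Slc2a1 was not called, with a log2 fold change of -0.02 (SE 0.12, adjusted p = 0.97). Mfsd2a, a lipid carrier that restrains transcytosis, was at 1314, 1352 and 1189 CPM at P5 and 1469, 1429.9 and 1426 CPM at P9. Mfsd2a was not called, with a log2 fold change of 0.17 (SE 0.14, adjusted p = 0.55). The libraries of the days overlapped for Cldn5 and Slc2a1, and for Mfsd2a those of P9 were above those of P5 without passing the test. Abcb1a, the efflux pump P-glycoprotein, was at 506, 562 and 526 CPM at P5 and 643, 683 and 649 CPM at P9, again without overlap (log2 fold change 0.31, SE 0.11, adjusted p = 0.12), and was called in the fit of the 6 libraries alone (0.038).

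Among carriers and receptors of the barrier a few members changed. Of 36 solute carriers 4 rose and 0 fell (median log2 fold change 0.09; 10 did not overlap and were higher and 8 lower, against 16.1% and 15.1% of all genes tested). Slc30a1, a zinc exporter, was at 197, 167 and 175 CPM at P5 and 234, 259 and 251 CPM at P9. Slc30a1 rose with a log2 fold change of 0.47 (SE 0.1, adjusted p = 0.0087). Slc16a4, of the monocarboxylate transporter family, was at 72.9, 86.1 and 67.4 CPM at P5 and 107, 129.7 and 99.5 CPM at P9. Slc16a4 rose with a log2 fold change of 0.57 (SE 0.13, adjusted p = 0.013). Slc1a1, the neuronal type glutamate carrier EAAC1, was at 66, 65.4 and 51.3 CPM at P5 and 88.3, 92.7 and 88.5 CPM at P9. Slc1a1 rose with a log2 fold change of 0.56 (SE 0.14, adjusted p = 0.018). Slc19a3, a thiamine transporter, was also higher (log2 fold change 0.49, adjusted p = 0.034), and for each of the 4 all P9 libraries exceeded all P5 libraries. Lrp1, a scavenger and clearance receptor, was the 1 of 14 barrier receptors called, and it fell: 486, 408 and 414 CPM at P5 and 219, 213 and 250.3 CPM at P9. Lrp1 fell with a log2 fold change of -0.94 (SE 0.19, adjusted p = 0.0059). Of 19 ABC transporters, Abcg1, a sterol exporter, rose (log2 fold change 0.4, adjusted p = 0.033) and Abcc1, a multidrug exporter, fell (log2 fold change -0.53, adjusted p = 0.039). The solute carrier counts were 3 higher and 0 lower with sex as a covariate, and 1 and 0 over female libraries alone. As higher and lower genes, the calls were 0 and 1 for barrier receptors and 1 and 0 for ABC transporters with sex as a covariate. With female libraries alone they came to 0 and 0 for barrier receptors and 0 and 0 for ABC transporters. Without the libraries named here (adjusted p in parentheses), no call was made for Slc30a1 without P9 library 2 (0.053), Slc16a4 without P5 library 1 or 3 or P9 library 2 (0.054 to 0.1) and Slc1a1 without P5 library 3 or P9 library 2 (0.077 to 0.12). Likewise lost were those of Slc19a3 without P5 library 1 or 3 or P9 library 1, 2 or 3 (0.052 to 0.2), Abcg1 without P5 library 2 or 3 or P9 library 1, 2 or 3 (0.075 to 0.17) and Abcc1 with any 1 of the 6 left out (0.069 to 0.17). An adjusted p of 0.05 or more was also found with the 12 wt libraries alone for Slc19a3 (0.055), and with DESeq2 size factors for Abcg1 (0.056), and with limma-trend for Slc19a3 (0.06), and with identity scaling for Slc30a1 (0.09), Slc16a4 (0.059), Slc1a1 (0.1), Slc19a3 (0.092), Abcg1 (0.26) and Abcc1 (0.063), and with the sex covariate for Slc1a1 (0.065) and Abcc1 (0.12).

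Calls were made for 3 of 17 caveolae and vesicle genes and 2 of 31 junction genes, beside 5.12% of all genes tested. Plvap, the diaphragm protein that brain endothelium loses as it matures (chromosome 8, 71497754 to 71511769), was at 26.4, 26.3 and 32.8 CPM at P5 and 9.29, 8.44 and 10.4 CPM at P9. All P9 libraries were below all P5 libraries (log2 fold change -1.59, SE 0.32, adjusted p = 0.0053), and the call was kept without any 1 library and with sex as a covariate. Mmrn1, multimerin, which with Plvap made up the 2 calls among 9 markers of peripheral and lymphatic endothelium, fell too (log2 fold change -0.76, adjusted p = 0.011). Among 17 genes of caveolae and vesicles, Ehd4, an endocytic ATPase, fell (log2 fold change -0.35, adjusted p = 0.048) and Stx4a, a syntaxin, rose (log2 fold change 0.45, adjusted p = 0.015). The 2 called of 31 junction genes were Cldn11, a claudin of myelin and also an oligodendrocyte marker (log2 fold change 2.09, adjusted p = 0.00013), and Gja1, a connexin that astrocytes also make, at 123, 117 and 102 CPM at P5 and 178, 171 and 152 CPM at P9. Gja1 rose with a log2 fold change of 0.55 (SE 0.15, adjusted p = 0.037). Counts of higher and lower genes were 0 and 2 for peripheral and lymphatic markers, 0 and 1 for caveolae and vesicle genes and 2 and 0 for junction genes with sex as a covariate. Female libraries alone gave 0 and 1 for peripheral and lymphatic markers, 0 and 1 for caveolae and vesicle genes and 1 and 0 for junction genes. With 1 library left out (adjusted p in parentheses), the call was lost by Mmrn1 without P9 library 1 (0.057), Ehd4 with any 1 of the 6 left out (0.062 to 0.21) and Stx4a without P5 library 2 or P9 library 1 (0.065 to 0.08). The same held for Gja1 with any 1 of the 6 left out (0.058 to 0.17). Over all libraries, a call was also lost with DESeq2 size factors for Gja1 (0.055), and with no low-count filter for Ehd4 (0.12), and with the replicate block for Ehd4 (0.053), and with limma-trend for Ehd4 (0.053) and Mmrn1 (0.16), and with identity scaling for Gja1 (0.14) and Stx4a (0.2), and with the sex covariate for Stx4a (0.052) and Ehd4 (0.081).

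Genes of sprouting vessels included 5 rises and 0 falls among 30 (median log2 fold change 0.17). Adm, adrenomedullin, a peptide of tip cells and of hypoxia, was at 41.9, 35.9 and 34.2 CPM at P5 and 78.8, 83.9 and 91.3 CPM at P9. Adm rose with a log2 fold change of 1.18 (SE 0.2, adjusted p = 0.0013). Apln, apelin, a tip cell ligand, was at 467, 556 and 500.4 CPM at P5 and 799, 845 and 844 CPM at P9. Apln rose with a log2 fold change of 0.71 (SE 0.17, adjusted p = 0.015). Cxcr4, the receptor of CXCL12, was at 75.9, 57.2 and 51.9 CPM at P5 and 118, 108 and 93.5 CPM at P9. Cxcr4 rose with a log2 fold change of 0.79 (SE 0.21, adjusted p = 0.026). The P9 libraries of all 3 were above those of P5. Angpt2, a ligand of Tie2, was the fifth (log2 fold change 0.9, adjusted p = 0.031). At the other stages Apln was at 97.1 ± 5.63 CPM at E15.5 and 72.9 ± 10 CPM in adults, both below its P5 level of 508 ± 45.1 CPM. Of 28 guidance genes 0 were called by edgeR (11 at an unadjusted p under 0.05, 1 called by DESeq2, 0 by limma-trend). The fit of the 6 libraries alone called 1 of them higher and 6 lower, and the fit with no low-count filter 2 higher and 4 lower. The higher and lower counts became 0 and 0 for guidance genes with sex as a covariate. Over female libraries alone they were 0 and 0 for guidance genes. The tip cell counts were 3 higher and 0 lower with sex as a covariate, and 0 and 0 over female libraries alone, and leaving out 1 library gave 1 (without P5 library 3 and P9 library 2) to 4 (without P5 library 2).

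In the Notch pathway 2 genes rose and 2 fell of 21. Dll4, the endothelial Notch ligand of tip cells and arteries, was at 329, 302 and 263 CPM at P5 and 427, 421 and 397 CPM at P9. Dll4 rose with a log2 fold change of 0.48 (SE 0.12, adjusted p = 0.026). Hey1, a Notch target, was at 61.3, 46.6 and 47.7 CPM at P5 and 94.6, 85.2 and 85.8 CPM at P9. Hey1 rose with a log2 fold change of 0.77 (SE 0.21, adjusted p = 0.031). Dll1, a ligand of neural progenitors and arteries, fell from 25.6, 20.3 and 30.2 CPM to 11.4, 11.2 and 8.85 CPM (log2 fold change -1.26, SE 0.17, adjusted p = 9.3e-05). Dtx4, a ubiquitin ligase of the pathway, fell as well (log2 fold change -0.49, adjusted p = 0.031). Arterial genes had 3 rises and 0 falls of 25, namely Dll4, Hey1 and Stmn2, which is also a neuronal gene (log2 fold change 0.49, adjusted p = 0.043), beside a median of -0.11. Without overlap 5 were higher and 9 lower, against 16.1% and 15.1% of all genes tested. The fit of the 6 libraries alone called 4 arterial genes higher and 6 lower. The 12 wt libraries alone and the DESeq2 test each called 4 higher and 2 lower. Venous genes had 0 calls of 20 by edgeR, DESeq2 and limma-trend (2 at an unadjusted p under 0.05). The fit of the 6 libraries alone and that with no low-count filter each called 2 higher and 2 lower. Smad7, the inhibitor induced by TGF-beta and BMP, was the 1 of 30 genes of those pathways called, at 45.1, 25 and 34.4 CPM at P5 and 73.1, 79.7 and 59.8 CPM at P9. Smad7 rose with a log2 fold change of 1.02 (SE 0.17, adjusted p = 0.00087). Given as higher and lower, the counts were 2 and 1 for Notch genes, 3 and 0 for arterial genes, 0 and 0 for venous genes and 1 and 0 for TGF-beta and BMP genes with sex as a covariate. In female libraries alone these were 0 and 1 for Notch genes, 0 and 0 for arterial genes, 0 and 0 for venous genes and 1 and 0 for TGF-beta and BMP genes. With 1 library left out, Apln lost its call without P5 library 1 or 3 or P9 library 2 (adjusted p 0.06 to 0.066). Cxcr4 lost its call without P5 library 2 or 3 or P9 library 1 or 2 (0.086 to 0.13). Dll4 lost its call without P5 library 2 or 3 or P9 library 1, 2 or 3 (0.055 to 0.14). Added to these were Hey1 without P5 library 2 or 3 or P9 library 1, 2 or 3 (0.071 to 0.13), Dtx4 without P5 library 1 or 2 or P9 library 1, 2 or 3 (0.074 to 0.11) and Stmn2 without P5 library 1 or 2 or P9 library 1, 2 or 3 (0.1 to 0.19). Settings that ended a call were DESeq2 size factors for Stmn2 (0.061), and identity scaling for Cxcr4 (0.072), Dll4 (0.098), Hey1 (0.11) and Stmn2 (0.32), and the sex covariate for Apln (0.067), Dtx4 (0.13) and Stmn2 (0.13).

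Among 24 Wnt targets 1 rose and 2 fell (median log2 fold change 0.03), beside 2.67% and 2.45% of all genes tested. Lef1, the nuclear partner of beta-catenin and itself a target (chromosome 3, 131110471 to 131224356), was at 96.4, 98 and 77.7 CPM at P5 and 143, 135 and 101 CPM at P9. The P9 libraries were above the P5 libraries, P9 library 3 only just (log2 fold change 0.48, SE 0.13, adjusted p = 0.038). Axin2, the usual reporter of the pathway, was at 136, 97.3 and 119.6 CPM at P5 and 132, 119.8 and 100 CPM at P9, with overlap and no call (log2 fold change -0.0, SE 0.15, adjusted p = 0.99). Rnf43, which removes Wnt receptors, was at 4.5, 4.05 and 4.6 CPM at P5 and 1.31, 2.15 and 0.571 CPM at P9. Rnf43 fell with a log2 fold change of -1.59 (SE 0.3, adjusted p = 0.0029). Myc, a growth regulator and also in the stress list, was lower (log2 fold change -0.59, adjusted p = 0.025). Of 27 receptors and effectors, Sfrp1, a secreted Wnt antagonist, rose (log2 fold change 0.69, adjusted p = 0.037), and Apc, of the destruction complex, fell (log2 fold change -0.51, adjusted p = 0.044). As higher and lower genes, the calls were 1 and 2 for Wnt targets and 0 and 1 for receptors and effectors with sex as a covariate. With female libraries alone they came to 0 and 1 for Wnt targets and 0 and 0 for receptors and effectors. Without the libraries named here (adjusted p in parentheses), no call was made for Lef1 without P5 library 1, 2 or 3 or P9 library 1 or 2 (0.051 to 0.19), Myc without P5 library 3 or P9 library 2 or 3 (0.078 to 0.17) and Sfrp1 without P5 library 1, 2 or 3 or P9 library 2 or 3 (0.063 to 0.19). Likewise lost were those of Apc with any 1 of the 6 left out (0.067 to 0.17). An adjusted p of 0.05 or more was also found with DESeq2 size factors for Lef1 (0.054), and with identity scaling for Lef1 (0.13), Sfrp1 (0.14) and Apc (0.072), and with the sex covariate for Sfrp1 (0.14).

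**Figure D3:**
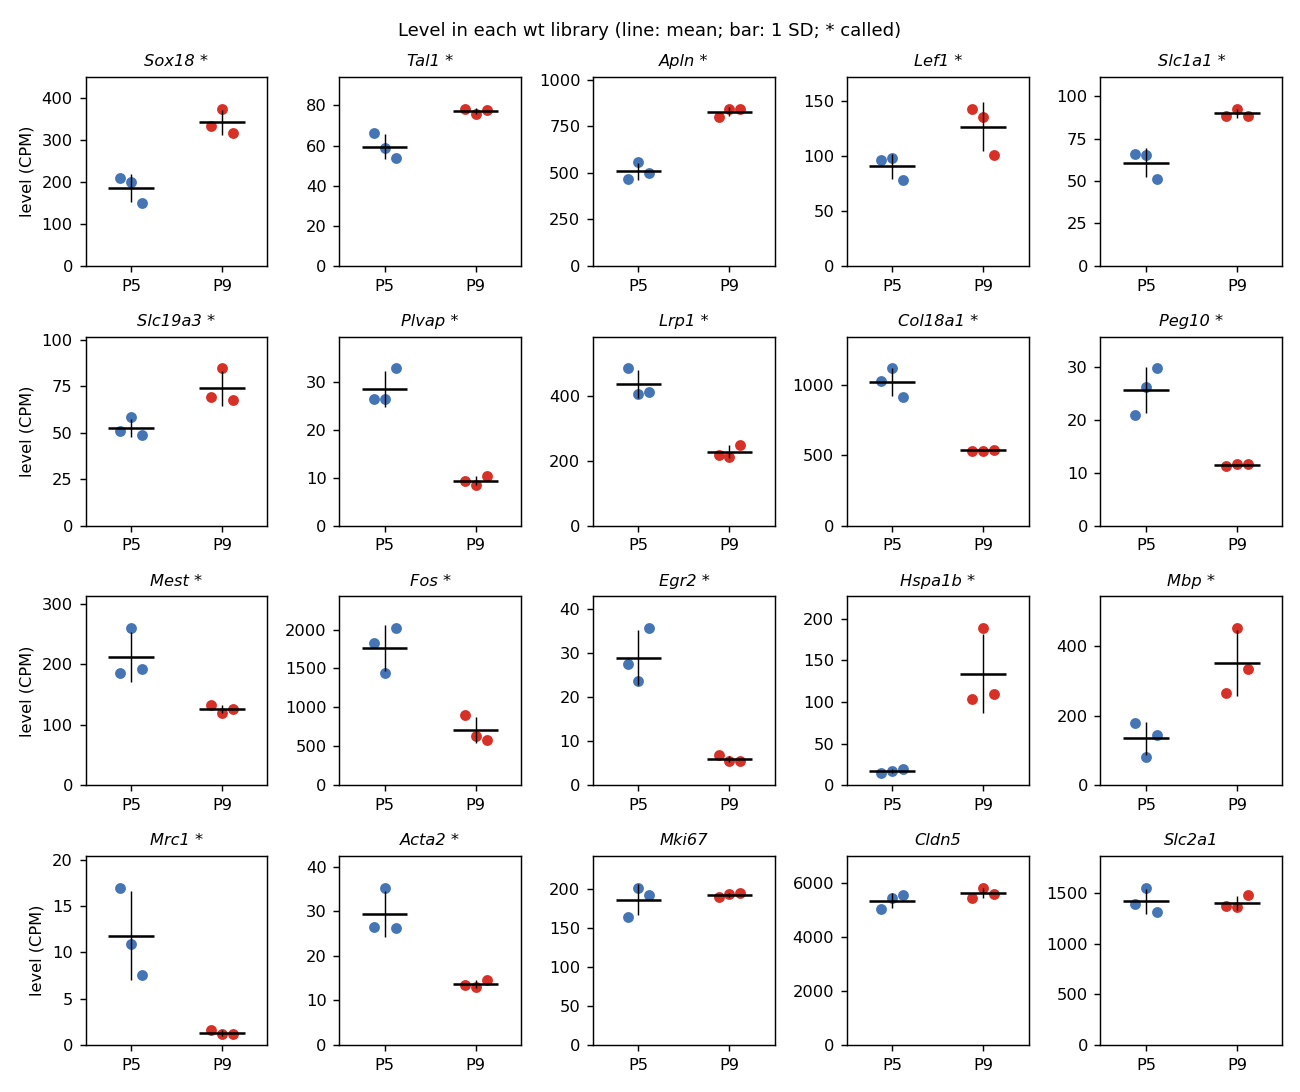
Each panel gives 1 gene's level (CPM, linear axis from 0) in the 3 P5 and 3 P9 wild-type libraries, with a line at the mean, a bar of 1 SD and an asterisk where the change was called. Mki67, Cldn5 and Slc2a1 overlap between the days, and the genes with an asterisk do not.

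No cell cycle gene was called by edgeR. The 40 members lay between log2 fold changes of -0.4 and 0.29 (median 0.04), with 2 at an unadjusted p under 0.05, 0 called by DESeq2 or limma-trend, and 3 in the fit of the 6 libraries alone. With sex as a covariate and over female libraries alone 0 were called. Mki67, the antigen of cycling cells, was at 164, 202 and 193 CPM at P5 and 189.9, 194 and 195 CPM at P9. Mki67 was not called, with a log2 fold change of 0.05 (SE 0.16, adjusted p = 0.9). It was at 10 ± 1.75 CPM in adults.

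Of the basement membrane and matrix genes some fell and few rose, with 1 of 37 higher and 6 lower, median log2 fold change -0.18. Col18a1, the collagen that yields endostatin (chromosome 10, 77052178 to 77166548), was at 1029.9, 1118 and 916 CPM at P5 and 532, 533 and 538 CPM at P9, and every P9 library was near 535 CPM (log2 fold change -0.93, SE 0.14, adjusted p = 0.00042). Col5a1, a fibrillar collagen, was at 55.5, 60.3 and 71.7 CPM at P5 and 17.7, 17.3 and 18.9 CPM at P9. Col5a1 fell with a log2 fold change of -1.79 (SE 0.33, adjusted p = 0.0025). Col15a1, a basement membrane collagen, was at 37.7, 36.9 and 43.2 CPM at P5 and 14.2, 14.2 and 20 CPM at P9. Col15a1 fell with a log2 fold change of -1.28 (SE 0.24, adjusted p = 0.0027). No library of one day reached the range of the other for any of the 3. Fbn1, fibrillin, fell (log2 fold change -0.67, adjusted p = 0.012), as did Lama1 and Fbln2 (log2 fold change -0.55 and -0.66). Sparcl1, hevin, a matrix protein of astrocytes and vessels, was the 1 rise (log2 fold change 0.46, adjusted p = 0.047). The type IV collagens Col4a1 and Col4a2 were not called (log2 fold change -0.28 and -0.15). Of 26 proteases and inhibitors, Mmp9, a gelatinase, fell from 87.8, 85.9 and 65 CPM to 28.7, 16.7 and 23.4 CPM (log2 fold change -1.79, SE 0.32, adjusted p = 0.0018), and Timp3, a metalloprotease inhibitor, fell less (log2 fold change -0.39, adjusted p = 0.044). The matrix counts were 1 higher and 4 lower with sex as a covariate, and 0 and 2 over female libraries alone. Counts of higher and lower genes were 0 and 2 for proteases and inhibitors with sex as a covariate. Female libraries alone gave 0 and 0 for proteases and inhibitors. With 1 library left out (adjusted p in parentheses), the call was lost by Fbn1 without P5 library 3 or P9 library 1 or 2 (0.059 to 0.084), Sparcl1 without P5 library 1 or 3 or P9 library 1, 2 or 3 (0.068 to 0.2) and Timp3 without P5 library 2 or 3 or P9 library 1 or 2 (0.12 to 0.22). Over all libraries, a call was also lost with DESeq2 size factors for Sparcl1 (0.063), and with the replicate block for Timp3 (0.051), and with identity scaling for Sparcl1 (0.11), and with the sex covariate for Sparcl1 (0.069).

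Several imprinted and oncofetal genes fell, with 0 of 22 higher and 8 lower, median log2 fold change -0.58, and 20 of 22 had a log2 fold change below 0. Peg10, an imprinted gene of retroviral origin, was at 21, 26.2 and 29.8 CPM at P5 and 11.3, 11.6 and 11.6 CPM at P9. Peg10 fell with a log2 fold change of -1.15 (SE 0.19, adjusted p = 0.00061). Mest, an imprinted hydrolase, was at 185, 260.1 and 192 CPM at P5 and 132, 119 and 126 CPM at P9. Mest fell with a log2 fold change of -0.76 (SE 0.17, adjusted p = 0.01). Plagl1, an imprinted zinc finger factor, was at 32.7, 34.8 and 38.1 CPM at P5 and 23, 19 and 22.4 CPM at P9. Plagl1 fell with a log2 fold change of -0.71 (SE 0.16, adjusted p = 0.0099). In all 3 the days did not overlap. Lin28b, an RNA-binding protein of immature cells, was at 2.28, 1.94 and 3.39 CPM at P5 and 0.72, 0.566 and 0.286 CPM at P9 (log2 fold change -2.02, SE 0.39, adjusted p = 0.0035), and the other calls were Hmga2, Igf2bp1, Igf2bp3 and Peg3. Igf2, the imprinted growth factor, was at 597, 927 and 676 CPM at P5 and 499, 348 and 427 CPM at P9 and was not called (log2 fold change -0.79, SE 0.3, adjusted p = 0.14), but it was in the fit of the 6 libraries alone (0.0044) and with no low-count filter (1.2e-08). The counts were 0 higher and 6 lower with sex as a covariate, and 0 and 2 over female libraries alone, and leaving out 1 library gave 2 (without P9 library 2) to 6 (without P5 library 1, P5 library 2, P9 library 1 and P9 library 3) lower. With 1 library left out, Mest lost its call without P5 library 2 or P9 library 2 (adjusted p 0.062 to 0.064). Plagl1 lost its call without P5 library 3 or P9 library 2 (0.054 to 0.072).

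Immediate early and stress genes, which cells also turn on while a tissue is dissociated, included many falls, with 0 of 22 higher and 11 lower, median log2 fold change -0.44. Egr1, an immediate early transcription factor, was at 974, 862 and 1013 CPM at P5 and 413, 287 and 259 CPM at P9. Egr1 fell with a log2 fold change of -1.57 (SE 0.16, adjusted p = 2.5e-06). Fos, of the AP-1 complex, was at 1826, 1448 and 2021 CPM at P5 and 904, 638 and 584 CPM at P9. Fos fell with a log2 fold change of -1.32 (SE 0.22, adjusted p = 0.00083). Egr2 was at 27.5, 23.5 and 35.6 CPM at P5 and 6.74, 5.49 and 5.43 CPM at P9. Egr2 fell with a log2 fold change of -2.27 (SE 0.35, adjusted p = 0.00038). P9 library 1 was the highest P9 library for each of the 3, and still below the lowest P5 library. Ier3, an early response gene, fell too (log2 fold change -1.33, adjusted p = 0.0035), and so did Ppp1r15a, the stress phosphatase subunit GADD34, at 289, 239 and 310.5 CPM at P5 and 136, 94.8 and 87.5 CPM at P9. Ppp1r15a fell with a log2 fold change of -1.4 (SE 0.17, adjusted p = 2.8e-05). Jun, Atf3, Nr4a1 and Btg2 were not called (log2 fold changes -0.29, -0.41, -0.13 and -0.08). The counts were 0 higher and 10 lower with sex as a covariate, and 0 and 6 over female libraries alone, and leaving out 1 library gave 4 (without P9 library 2 and P9 library 3) to 11 (without P9 library 1) lower. Since the kit changed between these days, and this list was drawn for its response to dissociation, handling and age cannot be told apart here. Summed over the 22 genes the level was 8446 to 11048 CPM at P5 and 5019.6 to 7509 CPM at P9, beside 1821 to 2569.7 CPM at E15.5 and 1503 to 1647 CPM in adults. Egr1 was at 153 ± 24.5 CPM at E15.5, 949.9 ± 78.5 CPM at P5, 319.6 ± 82.3 CPM at P9 and 47.6 ± 6.56 CPM in adults (SD, n = 3), and Egr2 at 6.75 ± 4.76 CPM at E15.5, 28.9 ± 6.2 CPM at P5, 5.89 ± 0.739 CPM at P9 and 1.33 ± 0.825 CPM in adults. Klf4, a factor of flow and of the early response, was the 1 of 21 flow-responsive genes called, at 564, 533 and 567 CPM at P5 and 348, 312 and 267 CPM at P9. Klf4 fell with a log2 fold change of -0.84 (SE 0.16, adjusted p = 0.0038). The higher and lower counts became 0 and 1 for flow-responsive genes with sex as a covariate. Over female libraries alone they were 0 and 0 for flow-responsive genes.

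Heat shock chaperones did the reverse for one pair. Hspa1b and Hspa1a, the inducible HSP70 genes on chromosome 17, were at 14.5, 16.6 and 19.7 CPM at P5 and 104, 189 and 109.7 CPM at P9 and at 10.4, 10.5 and 15.1 CPM at P5 and 62.5, 111 and 62.9 CPM at P9. P9 library 2 was the highest for both, and every P5 library was far below every P9 library (log2 fold change 2.98, adjusted p = 6.2e-05, and log2 fold change 2.71, adjusted p = 2e-05). These near-identical neighbours can share reads, so their separate levels are uncertain. Dnajb1, an HSP40 partner, fell (log2 fold change -0.45, adjusted p = 0.015), and the other 15 of 18 chaperones were not called. Of 22 genes known to respond to glucocorticoids, Sgk1, a kinase, fell from 255, 289.9 and 318 CPM to 151, 144 and 151 CPM (log2 fold change -0.95, SE 0.14, adjusted p = 0.00017). Dusp1, a phosphatase also in the stress list, fell (log2 fold change -0.83, adjusted p = 0.01), and Klf9, a Krüppel-like factor, rose (log2 fold change 0.59, adjusted p = 0.018). Given as higher and lower, the counts were 2 and 1 for chaperones and 1 and 2 for glucocorticoid-induced genes with sex as a covariate. In female libraries alone these were 2 and 0 for chaperones and 0 and 1 for glucocorticoid-induced genes. Without the libraries named here (adjusted p in parentheses), no call was made for Dnajb1 without P5 library 3 or P9 library 3 (0.07 to 0.094), Dusp1 without P9 library 2 or 3 (0.058 to 0.068) and Klf9 without P5 library 1 or P9 library 2 or 3 (0.058 to 0.1). An adjusted p of 0.05 or more was also found with identity scaling for Klf9 (0.13).

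In the metabolic lists 4 of 28 hypoxia and glycolysis genes and 3 of 25 cholesterol genes were called, beside 5.12% of all genes tested. Of 28 hypoxia and glycolysis genes, Ankrd37, a HIF target, was at 19.6, 18.6 and 21.3 CPM at P5 and 63.5, 77.4 and 73.5 CPM at P9 (log2 fold change 1.84, SE 0.24, adjusted p = 6.4e-05), Adm rose as above, and Pfkl, a phosphofructokinase, rose a little (log2 fold change 0.37, adjusted p = 0.025). Hif3a, an inhibitory HIF subunit, fell (log2 fold change -1.18, adjusted p = 0.022). All 25 cholesterol genes had a log2 fold change above 0 (median 0.3) and 17 did not overlap (higher at P9, against 16.1% of all genes tested), but 3 were called. Hmgcs1, which feeds the mevalonate pathway, was at 86.5, 76.7 and 84.5 CPM at P5 and 107, 124 and 126 CPM at P9. Hmgcs1 rose with a log2 fold change of 0.53 (SE 0.14, adjusted p = 0.027). Mvd, a decarboxylase of the same pathway (log2 fold change 0.59, adjusted p = 0.017), rose as well. More cholesterol genes were called higher in the fit of the 6 libraries alone (9), over the 12 wt libraries (7) and with no low-count filter (4), and none with identity scaling (0 of 25). As higher and lower genes, the calls were 2 and 0 for cholesterol genes and 2 and 0 for hypoxia and glycolysis genes with sex as a covariate. With female libraries alone they came to 0 and 0 for cholesterol genes and 1 and 0 for hypoxia and glycolysis genes. With 1 library left out (adjusted p in parentheses), the call was lost by Pfkl without P5 library 1 or 3 or P9 library 1, 2 or 3 (0.071 to 0.1), Hif3a without P5 library 2 or 3 or P9 library 1 or 3 (0.054 to 0.11) and Hmgcs1 without P5 library 1, 2 or 3 or P9 library 2 or 3 (0.057 to 0.11). The same held for Mvd without P5 library 2 or 3 or P9 library 1 (0.051 to 0.075). Over all libraries, a call was also lost with identity scaling for Pfkl (0.15), Mvd (0.12) and Hmgcs1 (0.24), and with the sex covariate for Hif3a (0.056), Pfkl (0.063) and Hmgcs1 (0.063).

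**Figure D4:**
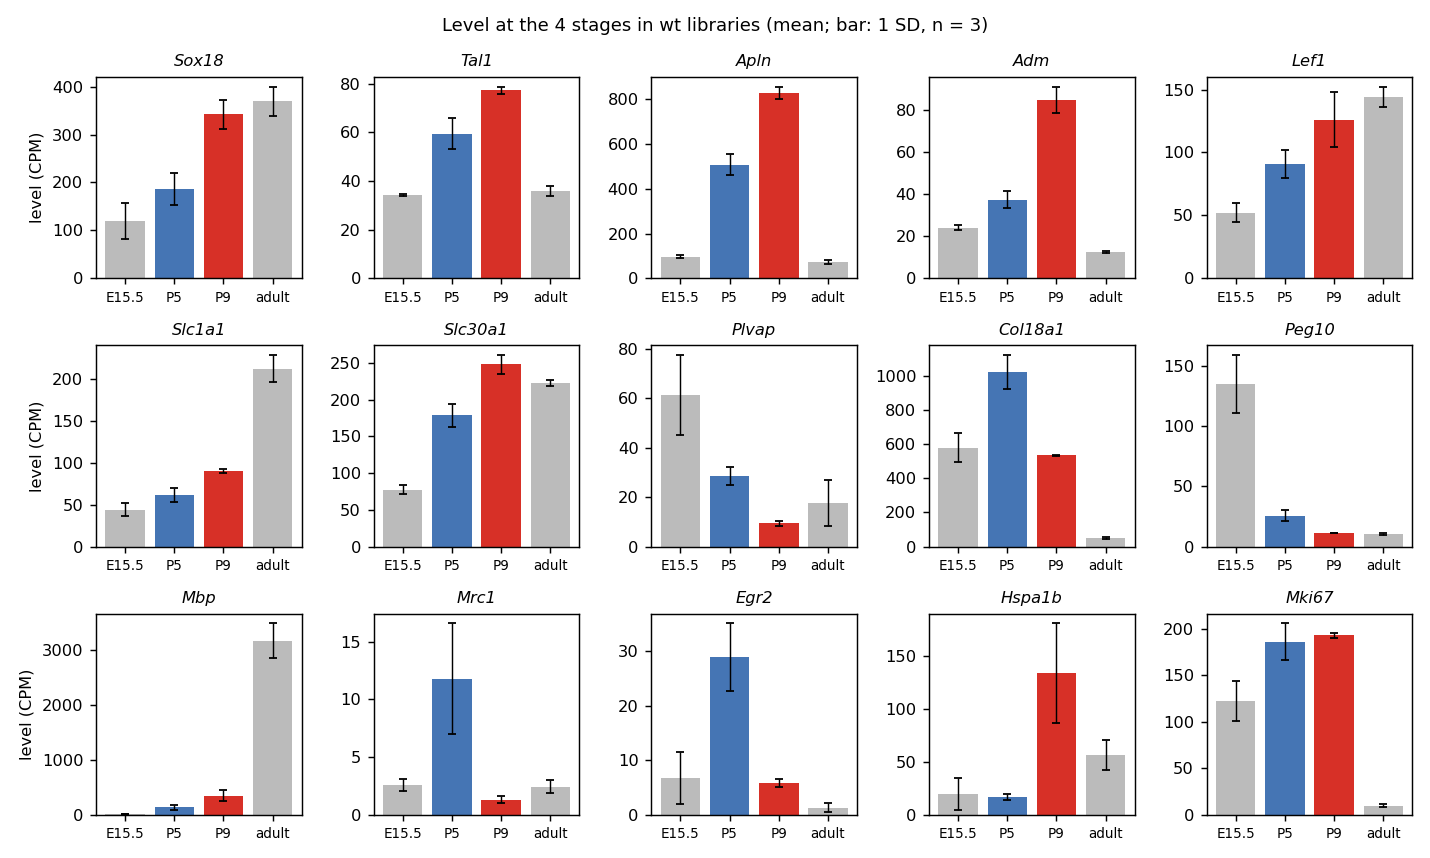
Bars give the mean level (CPM, linear axis from 0) of 15 genes in wild-type libraries at E15.5, P5, P9 and in adults, with 1 SD over 3 libraries; P5 is blue and P9 red. Apln and Adm are highest at P9, Mrc1, Egr2 and Col18a1 at P5, and Mbp in adults.

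Set beside the other stages, the genes fell into different courses, given here as levels with no test. Sox18 was at 119 ± 37.4 CPM at E15.5, 186 ± 32.7 CPM at P5, 342 ± 29.8 CPM at P9 and 369 ± 30.7 CPM in adults (SD, n = 3). Lef1 was at 52.2 ± 7.77 CPM at E15.5, 90.7 ± 11.3 CPM at P5, 126 ± 22 CPM at P9 and 144 ± 8.25 CPM in adults, so for both the P9 mean lay between those of P5 and adults. Tal1 was at 34.2 ± 0.385 CPM at E15.5, 59.5 ± 6.29 CPM at P5, 77.3 ± 1.49 CPM at P9 and 35.8 ± 1.99 CPM in adults, highest at P9. Plvap was at 61.3 ± 16.1 CPM at E15.5, 28.5 ± 3.73 CPM at P5, 9.38 ± 0.998 CPM at P9 and 17.6 ± 9.47 CPM in adults, and its P9 mean was the lowest. Col18a1 was at 579 ± 83.1 CPM at E15.5, 1021 ± 101 CPM at P5, 535 ± 3 CPM at P9 and 50.4 ± 3.51 CPM in adults. Slc1a1 was at 44.1 ± 7.23 CPM at E15.5, 60.9 ± 8.31 CPM at P5, 89.8 ± 2.46 CPM at P9 and 212 ± 16.3 CPM in adults, and Slc30a1 at 77.7 ± 6.4 CPM at E15.5, 179 ± 15.7 CPM at P5, 248 ± 13 CPM at P9 and 223 ± 4.06 CPM in adults. Peg10 was at 135 ± 24.3 CPM at E15.5, 25.7 ± 4.39 CPM at P5, 11.5 ± 0.195 CPM at P9 and 10.2 ± 0.76 CPM in adults. Hspa1b was at 20.1 ± 15.1 CPM at E15.5, 16.9 ± 2.61 CPM at P5, 134 ± 47.4 CPM at P9 and 56.4 ± 14.1 CPM in adults.

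The Sox17iECKO libraries went through the same days and the same change of kit, and share no library with the wild type. There 5923 of 17159 genes were called (34.5%). Of the 879 genes called in wild type, 465 were also called in the knockout in the same direction and 36 in the opposite one, and 735 had the same sign. A test of the difference between the genotypes called 2695 genes (15.7% of all), among them 203 of the 879. The oligodendrocyte list had 12 higher and 0 lower, median 2.35, in the knockout, and the microglia list 0 higher and 14 lower, median -2.02, next to medians of 2.17 and -2.2 in wild type. The stress list had 10 higher and 3 lower, median 0.48, where wild type had -0.44, and the difference between the genotypes was called for 12 of its 22 members. The cell cycle list had 0 higher and 39 lower, median -1.94, and the difference was called for 38 of 40. Pericyte markers had 1 higher and 12 lower, median -1.28, with a called difference for 1 of 14. Over the 44 genes asked singly, the largest rises and falls and the 14 fixed genes, 6 differed: Gckr, Rgs8, Lef1, Slc2a1, Abcb1a and Mki67.

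**Figure D5:**
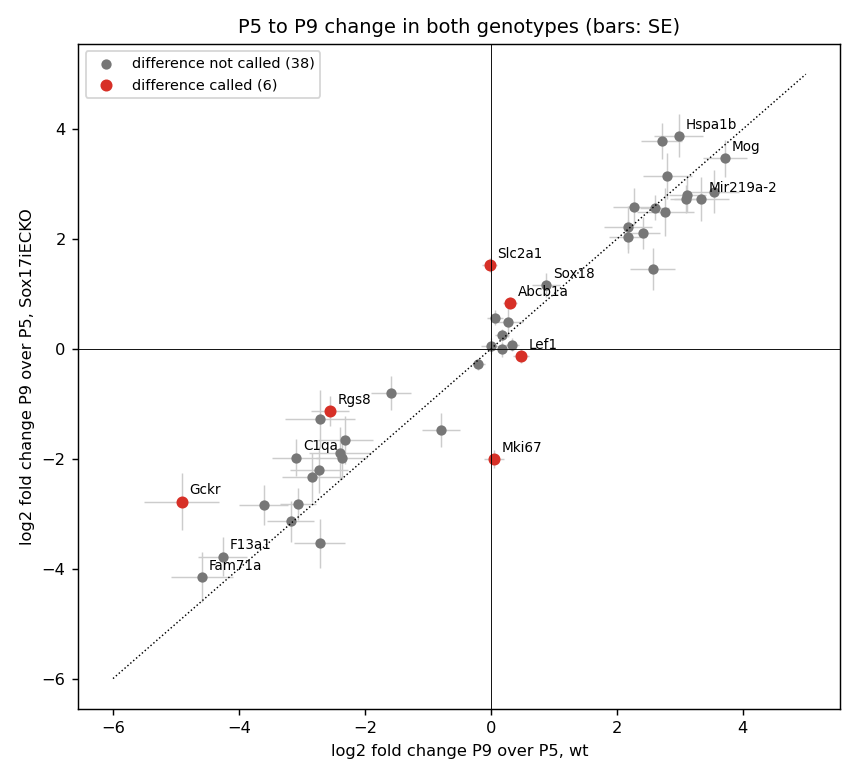
Each of 44 genes is placed by its log2 fold change of P9 over P5 in wild type (x axis) and in Sox17iECKO (y axis), with bars of 1 SE and a dotted line where both are equal. Most points lie along the line, and the 6 with a called difference are red.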

How the data were processed

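RNA of CD31-selected brain cells was measured in 24 libraries, 6 of them described here. The deposited tables give strand-specific read counts, FPKM and TPM for 45468 genes, made by the authors on mm10. Per the submitters' processing notes, Trim Galore 0.4.1, STAR 2.5.3a and SAMtools 1.5 were used. The deposited FPKM equals count over length and total and was not used otherwise, and TPM served to compare levels between genes.

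Counts of all 24 libraries (8 groups, 16 residual degrees of freedom) were fitted with edgeR 4.0.16 (quasi-likelihood, TMM scaling, prior count 2, R 4.3.3) over 17159 genes (group mean of 10 counts or more in any group), and p-values were adjusted by Benjamini-Hochberg. Levels are CPM on TMM-scaled totals, with SE the log2 fold change over the square root of F. DESeq2 1.42.0, limma 3.58.1 and other scalings, filters, sample sets and left-out libraries were alternatives. Fits with sex were chosen after seeing the data. On simulated counts (P9 against P5, 15384 genes) 38.8% of 1.5-fold, 89.6% of 2-fold and 98.5% of 4-fold changes were recovered with 9 false calls. The simulation gave every gene the same relative spread between libraries and planted changes only above a minimum count. Real genes differ in spread, so these shares check the fit and are not the recovery in the real libraries.

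The members, 50 gene lists and tests were chosen with earlier results of these data known. 1042 of 1050 list entries matched, by symbol, else by gene identifier through the current symbol, else by an older name. Named genes were the 15 largest called rises and 15 falls without overlap and with at least 50 counts, up to 4 called members per list plus exceptions, 14 fixed genes, and the 8 largest called changes above 200 CPM. Other genes named (Angpt2, Lama1, Fbln2, Opalin, Peg3, Hmga2, Igf2bp1, Igf2bp3 and those given as not called) were chosen after their values were seen. A few genes picked by these rules are not reported here. The labels call the libraries of a group independent biological replicates. Same-numbered libraries did not deviate together (r -0.00234, -0.0178 and 0.0213), so numbers do not pair them. No pair of libraries had identical counts.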

Additional observations from a re-analysis of the deposited data

Results flagged for a closer look

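For 6 of 44 genes the P5 to P9 change in wild type differed from that in Sox17iECKO (n = 3 libraries a group; edgeR test of the difference, adjusted over all 17159 genes, of which 15.7% were called). Wild type minus knockout, the log2 differences were -2.13 for Gckr (SE 0.71, adjusted p = 0.042), -1.43 for Rgs8 (SE 0.41, adjusted p = 0.02), 0.61 for Lef1 (SE 0.19, adjusted p = 0.031), -1.55 for Slc2a1 (SE 0.17, adjusted p = 1.4e-06), -0.53 for Abcb1a (SE 0.16, adjusted p = 0.029) and 2.05 for Mki67 (SE 0.22, adjusted p = 1e-06).

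Slc2a1, the glucose transporter, had a log2 fold change of -0.02 in wild type and of 1.53 in the knockout, where it went from 1882 ± 161 CPM at P5 to 5438 ± 470.1 CPM at P9 (SD, n = 3). Mki67, the antigen of cycling cells, had 0.05 in wild type and -2.0 in the knockout, from 223 ± 20.4 CPM to 55.6 ± 12.2 CPM. These differences of Slc2a1 and Mki67 were called in every setting run. Lef1 had 0.48 in wild type and -0.13 in the knockout, Abcb1a had 0.31 and 0.83, Gckr had -4.91 and -2.78, and Rgs8 had -2.55 and -1.13.

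The other 4 lost their call without some libraries, with log2 differences of the same sign throughout. The difference was not called for Gckr without P5 library 2 or 3 or P9 library 1 or 3 (adjusted p 0.053 to 0.12), for Rgs8 without P5 library 3 or P9 library 2 (0.052 to 0.075), for Lef1 without P5 library 3 or P9 library 1 or 2 (0.078 to 0.097), and for Abcb1a without P5 library 2 or P9 library 1 or 3 (0.057 to 0.067). Identity scaling ended the calls of Gckr (0.051), Rgs8 (0.055) and Abcb1a (0.18), and DESeq2 size factors that of Lef1 (0.057). The fit of the 12 libraries of P5 and P9 alone ended that of Rgs8 (0.052), and the replicate block that of Gckr (0.052). Female wild-type libraries alone, against knockout groups of both sexes, ended those of Gckr and Abcb1a (log2 differences -2.44 and -0.5). With sex as a covariate all 6 were called.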

How the results depend on the processing

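The counts of genes higher and lower at P9, 458 and 421 in the fit of all 24 libraries, moved most with the samples used. The 6 libraries alone gave 913 higher and 1150 lower, and the 12 wild-type libraries alone 584 higher and 737 lower. Without 1 library the higher genes ranged from 154 (without P9 library 2) to 296 (without P5 library 1) and the lower genes from 151 (without P9 library 2) to 359 (without P5 library 2). Female libraries alone gave 87 and 110, and 1612 genes whose change differed between the genotypes, against 2695. The DESeq2 test gave 541 higher and 765 lower. No low-count filter gave 587 and 992 over 30432 genes, and scaling to the identity genes 146 and 396. With DESeq2 size factors the share of higher genes among the calls was 44.3%, against 52.1%. The cause was not tested. The other settings stayed within 1.5 times for the count of genes, and for the difference between the genotypes all settings but the female libraries did.

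The replicate numbers did not pair the libraries. With the replicate block 488 genes were higher and 473 lower, 846 of these calls shared with the fit without it, and 2734 differed between the genotypes.

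Over 126 named genes, 115 of them called, 2140 values were computed under alternatives: 1809 kept direction and side of the threshold, 326 lost the call, 5 gained one and 0 reversed. Of the 115, 45 kept their call throughout, 20 lost it with sex as a covariate and 67 over female libraries alone, where P5 is 1 library. Depth limited the genes near 3 counts, such as Gckr at P9 and Opalin at P5.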

Other observations

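Other gene lists held few calls between P5 and P9 in wild type, beside 5.12% of all genes called. Of 32 ribosomal protein genes 1 fell, Rpl10 (log2 fold change -0.56, adjusted p = 0.0069), and the median was -0.06. Of 28 interferon-stimulated genes 1 fell, the ubiquitin ligase gene Trim25 (-0.45, adjusted p = 0.011). Of 23 genes of MHC and antigen processing 2 rose, the invariant chain gene Cd74 (1.49, adjusted p = 0.028) and H2-T23 (0.55, adjusted p = 0.028). Of 19 iron and haem genes 2 fell, the ferritin gene Ftl1 (-0.61, adjusted p = 0.00084) and the zinc and iron carrier gene Slc39a14 (-0.74, adjusted p = 0.048). Of 19 clock genes 1 rose, Bhlhe40 (0.80, adjusted p = 0.0042), and of 17 haemostasis genes 1 rose, tissue factor gene F3 (0.92, adjusted p = 0.019). Ndufa4 was the 1 of 25 oxidative phosphorylation genes called (0.42, adjusted p = 0.037), and Acsl3 the 1 of 25 fatty acid genes (0.43, adjusted p = 0.028). Inflammatory genes (23), p53 targets (20) and genes of the insulin-like growth factor system (16) had 0 calls by edgeR, with 3, 5 and 6 at an unadjusted p under 0.05, 0, 0 and 2 called by DESeq2, and 0 by limma-trend. The fit of the 6 libraries alone called 1 and 3 (higher and lower) of the inflammatory list, 5 and 0 of the p53 list and 1 and 2 of the growth factor list. With no low-count filter these were 0 and 4, 2 and 0, and 0 and 3. Over the 12 wt libraries they were 0 and 0, 2 and 0, and 0 and 1. With sex as a covariate, and over female libraries alone, 0 genes of these 3 lists were called. In the p53 list 17 of 20 had a log2 fold change above 0 and 11 did not overlap between the days (higher at P9, against 16.1% of all genes tested). The other 8 lists, as higher and lower, had 0 and 3 for ribosomal proteins, 0 and 1 for interferon-stimulated genes, 1 and 0 for MHC and antigen processing, 0 and 1 for iron and haem, 1 and 0 for the clock, 1 and 0 for haemostasis, 0 and 0 for oxidative phosphorylation and 1 and 1 for fatty acids with sex as a covariate. Female libraries alone gave 1 lower gene of the iron and haem list and 0 calls in the other 7. With 1 library left out (adjusted p in parentheses), the call was lost by Trim25 without P9 library 2 (0.051), Cd74 without P5 library 1, 2 or 3 or P9 library 1 or 2 (0.068 to 0.11) and H2-T23 with any 1 of the 6 left out (0.051 to 0.12). The same held for Slc39a14 with any 1 of the 6 left out (0.067 to 0.17), F3 without P5 library 2 or P9 library 2 (0.095 to 0.096) and Ndufa4 without P5 library 1 or 2 or P9 library 1, 2 or 3 (0.06 to 0.16). It also held for Acsl3 without P5 library 1 or 3 or P9 library 1 or 2 (0.073 to 0.15). Over all libraries, a call was also lost with DESeq2 size factors for Ndufa4 (0.054), and with identity scaling for F3 (0.096), Cd74 (0.06), H2-T23 (0.093), Ndufa4 (0.26), Acsl3 (0.2) and Slc39a14 (0.06), and with the sex covariate for H2-T23 (0.091), Ndufa4 (0.13) and Slc39a14 (0.053).

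The mitochondrial rRNA gene mt-Rnr1 was among the abundant genes that changed, at 419, 781 and 436 CPM at P5 and 234, 239 and 157 CPM at P9 (log2 fold change -1.38, adjusted p = 0.0019). P5 library 2 was the highest, and all P9 libraries were below all P5 libraries.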
